A study of Macaca radiata with 4 samples.

Results

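Angiogenic and guidance signalling was examined through the ligands and receptors of the VEGF, angiopoietin, Notch, PDGF, FGF, ephrin, semaphorin, Slit and endothelin families, as measured in the corpus luteum of female bonnet monkeys (Macaca radiata). Genes were chosen by symbol alone: every probe set (the oligonucleotides on the array that together report 1 transcript) that the array's annotation pairs with 1 gene symbol of these families was taken, and a gene was represented by its probe set with the highest mean of log2(signal + 16). This gave 97 of the 14132 genes with a single-symbol probe set, from 178 probe sets. They comprised 25 semaphorins and plexins, 22 FGFs and FGF receptors, 19 ephrins and Eph receptors, 8 Notch ligands and receptors and 7 Slits and Robos. The others were 6 VEGF family ligands, receptors and neuropilins, 6 angiopoietins, angiopoietin-like proteins and TIE receptors, 3 PDGF ligands and 1 endothelin. The FGFs, taken by symbol, include intracellular members such as FGF12. Of the 97, 72 had a mean log2 value above the level used to filter dim probe sets, which equals a signal of 90.7, and 25 did not. The most studied luteal angiogenic ligand gene, VEGFA, was not among the matched genes, and neither were VEGFC, ANGPT2, NOTCH1, PDGFRA, PDGFRB and EPHB4. These 7 genes were not analysed here.

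Tissue was measured on 4 arrays in 2 groups. In the rhLH group (replicates 3 and 4), animals on luteal phase day 7 received 150 µg/kg of CET, an agent given to stop their endogenous LH, then an intravenous injection of 20 IU/kg of rhLH, a recombinant LH, at 24 h, and the corpus luteum was taken 8 h after that injection. In the PBS group (replicates 1 and 2), animals received the same CET dose on the same day and 0.5 ml of PBS in place of LH. Every animal had therefore been deprived of LH, the groups differ in its return, and a corpus luteum without CET was not analysed here. Each group is labelled as 2 animals, without saying which animal an array came from, so p-values below reflect how far these arrays spread, which may be partly technical.

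The corpus luteum is built from the emptied follicle within days and is among the most densely vascularised adult tissues. VEGF family ligands drive endothelial growth through KDR, angiopoietins act through TEK to stabilise or loosen vessels, and Notch signalling between neighbouring endothelial cells sets which of them sprout. PDGF from endothelial cells recruits pericytes, and the ephrin, semaphorin and Slit families, first known from axon guidance, steer or repel the growing vessel. In primates LH sustains both progesterone output and the luteal vasculature.

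The PBS arrays were unlike each other. Over the 72 genes above the filter level, the median absolute log2 difference was 0.30 between the rhLH arrays and 0.71 between the PBS arrays, with 1 gene over 2-fold apart in the first pair and 25 in the second. PBS replicate 1 held the highest signal of the 4 for 29 genes and the lowest for 31, and its log2 values correlated across these genes at r = 0.79 to 0.81 with the other arrays, which correlated with each other at 0.94 to 0.96 (genes are not independent replicates). Differences are therefore also given against each PBS array alone, the one against PBS replicate 2 being, for a single gene, the result without PBS replicate 1. Role group medians against each PBS array are over the same kept genes, whereas leaving out an array also changes which genes pass the filter. All 7 matched markers of luteal steroidogenic cells (of 10 listed, among them STAR and HSD3B2) lay above the filter level on every array. Of 13 endothelial markers 11 were matched, none listed at 0. Their summed signal was 24021 and 27068 on the rhLH arrays and 21205 and 26408 on the PBS arrays, and 5 matched markers of pericytes and smooth muscle summed to 10912 and 14016 with rhLH and to 10122 and 13937 with PBS. In whole tissue, fewer cells of a type and less RNA per cell cannot be told apart.

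Across all these families, values above and below 0 were almost equal in number. The median difference over the 72 genes was -0.038 on the log2 scale (rhLH minus PBS), with 35 positive and 37 negative values. It was -0.036 over all 31659 kept probe sets, and 0.018 over 10998 genes taken by their brightest kept probe set. The ends of the range were ANGPTL2, at 1.55, and FGF6, at -1.43, which passed the filter only through its PBS signals. No gene passed the limma test after Benjamini-Hochberg adjustment over all kept probe sets (0 of 72, where 0% of all probe sets passed), with adjusted p between 0.919 and 0.998. With 1 array left out, calls arose only without PBS replicate 2, over all probe sets as well as among these genes. They are not counted here, since the lone PBS array of that fit is PBS replicate 1, the array least like the others. An unadjusted limma p under 0.05 was found for 2 of the 72, both higher with rhLH, against 2.02% of all probe sets (0.878% higher and 1.15% lower). Both rhLH arrays lay above both PBS arrays for 15 genes and below both for 14, which is 20.8% and 19.4% of the 72. Over all kept probe sets the shares were 14.4% and 17.7%. Over all genes by their brightest kept probe set, the closer comparison, they were 16.3% and 16.1%. None of the 72 was at least 2-fold apart between every rhLH and every PBS array, a gap met by 0.344% of all probe sets upward and 0.490% downward. Over all 97 genes without the filter, 18 lay above and 20 below, or 18.6% and 20.6%, against 13.3% and 19.5% of all unfiltered probe sets.

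Centring each array on its median moved the median of all kept probe sets to 0.19, since PBS replicate 1 had a median signal of 186 and the other arrays 135 to 139. On that scale the 15 above and 14 below (51.7% above) became 17 above and 7 below (70.8%), while all kept probe sets went to 66.4% above with the same step, against 44.9% before it. Without PBS replicate 1, 73 genes passed the filter, of which 27 lay above and 29 below PBS replicate 2, with 33.6% and 35.2% of all probe sets doing so.

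**Figure D1:**
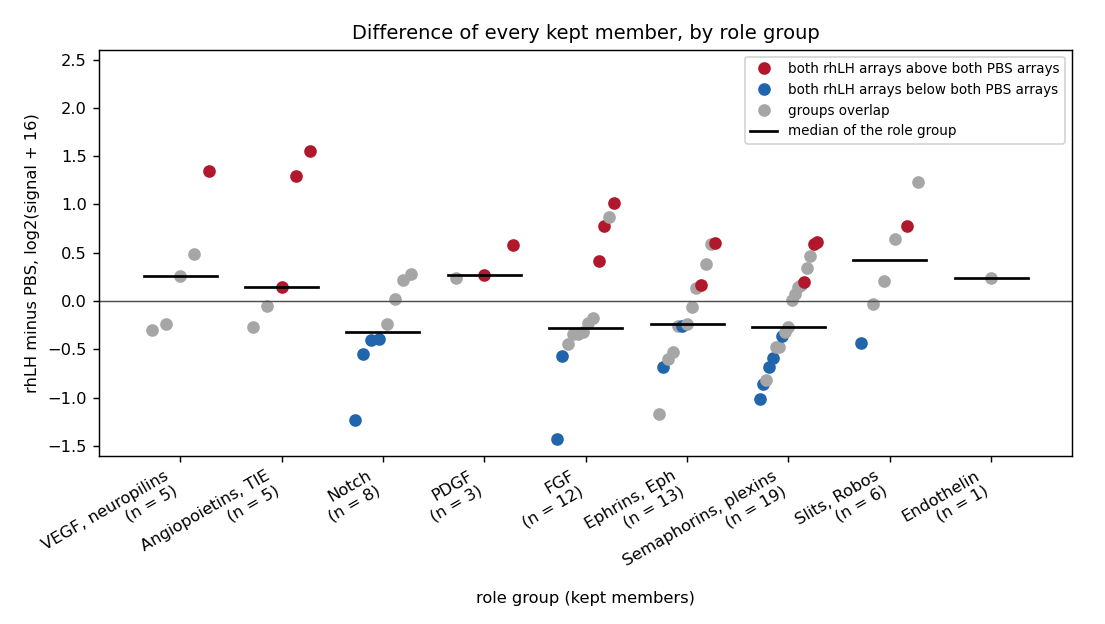
Each point is 1 of the 72 genes above the filter level, placed by its role group on the horizontal axis and by its rhLH minus PBS difference in log2(signal + 16) on the vertical axis, with the black line at the role group's median. Red and blue points mark genes whose 2 rhLH arrays lay above or below both PBS arrays; the 4 separated Notch genes are all blue, and the red points in the VEGF and angiopoietin groups are KDR, ANGPTL2, ANGPTL4 and TIE1.

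Among the VEGF signalling genes, KDR, FLT1 and NRP2 had their lowest signals on PBS replicate 1. The median difference of the 5 kept genes was 0.26, with 0.97 when only PBS replicate 1 was used and -0.019 when only PBS replicate 2 was. KDR, the main signalling receptor for VEGFA, had signals of 241 and 305 on the rhLH arrays and of 34.8 and 234 on PBS replicates 1 and 2. The rhLH signals lay above both, just above PBS replicate 2 and far above PBS replicate 1, and the log2 difference of 1.35 (SE 0.84) stood at 2.50 when set against PBS replicate 1 and at 0.20 when set against PBS replicate 2. FLT1, which binds VEGFA and VEGFB tightly and signals weakly, had 108 and 153 with rhLH and 57.8 and 181 with PBS, and NRP2, a co-receptor for VEGFC and class 3 semaphorins, had 121 and 198 with rhLH and 34.2 and 281 with PBS. For both the groups overlapped, since PBS replicate 1 was lowest and PBS replicate 2 highest of the 4 arrays. Their log2 differences of 0.26 and 0.49 became -0.45 and -0.80 without PBS replicate 1. Low signals on that array, under the filter level, were also read for 2 of the 11 endothelial markers, SOX18 (551 and 668 with rhLH, 47.5 and 554 with PBS) and MMRN2 (181 and 280.1 with rhLH, 24.3 and 239 with PBS), but not for PECAM1 (4527 and 5043 with rhLH, 6549 and 5350.2 with PBS), and their part in the result was not tested. These 3 markers were named after their values were seen.

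NRP1, the neuropilin that binds VEGFA and SEMA3A, was read at 1707 and 2309 with rhLH and 3038 and 1972 with PBS (log2 -0.30, SE 0.37), and at 0.0099 against PBS replicate 2 alone. Its further probe sets above the filter level disagreed, at -0.58 and 1.01. VEGFB, a ligand of FLT1 tied to fatty acid handling, had 1190.3 and 1313 with rhLH and 1716 and 1267 with PBS, a difference of -0.24 (SE 0.33) that was -0.019 without PBS replicate 1. FLT4, the VEGFC receptor of lymphatic vessels, stayed below the filter level on every array, at 41.4 and 79.0 with rhLH and 49.8 and 83.1 with PBS.

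The angiopoietin-like ligands gave the only 2 unadjusted p-values under 0.05. ANGPTL2, a secreted protein linked to vascular inflammation, had signals of 932 and 541 on the rhLH arrays and of 177 and 302 on the PBS arrays, 2.93-fold higher with rhLH (log2 1.55, SE 0.49, limma adjusted p = 0.919). The groups did not overlap, with 1.91 from PBS replicate 1 and 1.19 from PBS replicate 2. The dimmer of the 2 ANGPTL2 probe sets read 451 and 315 with rhLH and 60.3 and 148 with PBS, a difference of 1.81 with no overlap. ANGPTL4, an inhibitor of lipoprotein lipase known to be induced by fasting and low oxygen, had 7544 and 6791 with rhLH and 1976 and 4257 with PBS (2.46-fold, log2 1.30, SE 0.44, limma adjusted p = 0.919). Both rhLH signals again lay above both PBS signals, with 1.85 from PBS replicate 1 and 0.75 from PBS replicate 2, whereas the further ANGPTL4 probe set had 4077 and 3191 with rhLH and 230 and 3395 with PBS, so that its groups overlapped and its difference was 0.087 without PBS replicate 1.

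Among the angiopoietin receptors, TIE1, the partner of TEK on endothelial cells, had signals of 2516 and 2574 with rhLH and 2271 and 2316 with PBS. All 4 arrays lay within a small range, and the non-overlapping difference was 0.15 on the log2 scale (SE 0.30). TEK itself, the angiopoietin receptor, read 1270.0 and 1529 with rhLH and 1797 and 1154 with PBS, and its difference of -0.047 became 0.27 without PBS replicate 1 and 0.18 after median centring. Its further kept probe set read 250.2 and 245 with rhLH and 938 and 225 with PBS, an overlapping difference of -0.86 that was 0.13 without PBS replicate 1, and the median over both TEK probe sets was -0.45. ANGPT1, the ligand that activates TEK and comes from cells around the vessel, had 814 and 952 with rhLH and 887 and 1269 with PBS (log2 -0.27, SE 0.36), which overlapped, with -0.012 from PBS replicate 1 and -0.52 from PBS replicate 2. Its 2 further kept probe sets, at -0.67 and -0.80, had no overlap, with both rhLH arrays below both PBS arrays. The remaining angiopoietin, ANGPT4, lay below the filter level.

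Of the role groups, the Notch genes had the largest share below both PBS arrays, 4 of 8 (50%), where 17.7% of all kept probe sets lay so. All 8 passed the filter, their median difference was -0.32 (-0.38 and -0.39 against PBS replicates 1 and 2), and both rhLH arrays lay below both PBS arrays for NOTCH2, JAG1, DLL4 and NOTCH4, and above for 0. After median centring the median was -0.090, with 2 below and 1 above, and JAG1 and NOTCH4 then overlapped. On that scale 3575 of all 31659 kept probe sets lay below and 7068 above. NOTCH2, a receptor known from granulosa cells of the mouse, had signals of 1069.8 and 1932 with rhLH and 5548 and 2079.6 with PBS (log2 -1.23, SE 0.56). PBS replicate 1 stood far above the other 3 arrays, and the difference was -0.53 against PBS replicate 2 alone and -0.81 without rhLH replicate 3. Of 3 further NOTCH2 probe sets above the filter level, 1 had both rhLH arrays below both PBS arrays (-0.73), 1 overlapped at -0.94 and 1 stood at 0.00027.

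JAG1, a Notch ligand of endothelial and mural cells, had 792 and 1303 with rhLH and 1619 and 1382 with PBS (log2 -0.55, SE 0.38). The value from rhLH replicate 4 was near PBS replicate 2, and without rhLH replicate 3 the difference was -0.20. The further JAG1 probe set read 327 and 273 with rhLH and 463 and 403 with PBS, also without overlap (-0.51). DLL4, the ligand by which a sprouting tip cell restrains its neighbours, was read at 916 and 873 with rhLH and at 1233 and 1142 with PBS. It was lower on both rhLH arrays by similar amounts against each PBS array (-0.46 and -0.35, pooled -0.40, SE 0.32), as was NOTCH4, the receptor largely restricted to endothelium, at 464 and 513 with rhLH and 609 and 688 with PBS (-0.31 and -0.48, pooled -0.40, SE 0.36). The other 4 Notch genes, DLL1, DLL3, JAG2 and NOTCH3, overlapped, with differences from -0.24 to 0.28. NOTCH3, the receptor of vascular smooth muscle and pericytes, had 1257 and 1771 with rhLH and 789 and 2062 with PBS, and its difference of 0.22 was -0.46 without PBS replicate 1.

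Genes of the same pathways outside these families were taken from a list of 62, of which 47 were matched and 41 passed the filter. None passed the limma test (2, HES4 and ECE2, had an unadjusted p under 0.05), and 6 lay above and 8 below both PBS arrays, or 14.6% and 19.5%, near the shares of all kept probe sets. Of the 13 Notch pathway genes kept, 3 lay below and 2 above. HEY2, a transcriptional repressor induced by Notch in arterial endothelium, had 522 and 959.9 with rhLH and 1407 and 1128 with PBS (log2 -0.82). HES1, a general Notch target, had 229 and 248 with rhLH and 621 and 287 with PBS (-0.79), and MAML1 also lay below both (-0.40). On the other side, HES4, a further target gene, had 175 and 226 with rhLH and 47.7 and 76.7 with PBS (1.48). Both its PBS signals were under the filter level, so it passed only through its rhLH signals and its separation is no support. RBPJ, the DNA-binding partner of the Notch receptors, had 5572 and 4827 with rhLH and 2354 and 4678 with PBS (0.64). Values of the Notch pathway genes thus lay on both sides of 0. The pathway genes given values here and below, and NOTCH3, were named after their values were seen.

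All 3 PDGF ligands had positive differences, with a median of 0.27. PDGFB, which endothelial cells secrete to recruit pericytes, had 2631 and 2349 with rhLH and 1976 and 2147 with PBS, with both rhLH arrays above both PBS arrays (log2 0.27, SE 0.30). The differences were small and alike against each PBS array, at 0.33 and 0.21, and of 4 further PDGFB probe sets 2 stood above 0 (0.44 and 0.37) and 2 below (-0.38 and -0.10). PDGFA, a mitogen for stromal cells, had 821 and 815 with rhLH and 419 and 704 with PBS (0.58, SE 0.40), again without overlap, and its difference was 0.21 against PBS replicate 2 alone. PDGFC overlapped (0.24), and both of its further kept probe sets were negative, at -0.41 and -1.49. The latter passed the filter only through PBS replicate 1 (30.8 and 82.4 with rhLH, 389 and 73.2 with PBS).

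Of the 22 FGFs and FGF receptors only 12 passed the filter, and they pointed both ways. Of the 12, 3 lay above both PBS arrays (25%) and 2 below (16.7%), where 14.4% and 17.7% of all kept probe sets did so. Their median was -0.28, with -0.47 when only PBS replicate 1 was used and 0.18 when only PBS replicate 2 was (0.35 over the 11 genes that passed the filter without PBS replicate 1). FGF9, a secreted growth factor known from testis development in the mouse, had signals of 581 and 1170.4 with rhLH and 329 and 486 with PBS. The groups did not overlap, rhLH replicate 4 was highest, and the difference of 1.02 (SE 0.48) was 0.75 without PBS replicate 1 and 0.52 without rhLH replicate 4. FGF6, a ligand known from muscle repair in the mouse, had the lowest difference of the 72, with 41.7 and 74.3 on the rhLH arrays, both under the filter level, and 329.5 and 93.5 on the PBS arrays (log2 -1.43, SE 0.78). The difference from PBS replicate 1 was -2.26, and that from PBS replicate 2 was -0.60. FGF6 passed the filter only through its PBS signals, and not without PBS replicate 1, so its separation is no support.

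FGFR1, the receptor for many of these ligands, had 313 and 380.0 with rhLH and 79.5 and 392 with PBS, and its overlapping difference of 0.87 was -0.18 without PBS replicate 1. Its further probe set did separate the groups (235 and 284 with rhLH, 54.9 and 177 with PBS, log2 1.23). FGF2, a classical endothelial mitogen, did not pass the filter, though both rhLH signals (125 and 95.9) exceeded both PBS signals (41.2 and 12.9). FGF21 and FGF23, circulating hormones of metabolism and phosphate balance, lay above both PBS arrays at 0.78 and 0.41, and FGF12, an intracellular family member that binds sodium channels, lay below both at -0.57. These 3 genes, and the others given below as separated by group without a full set of signals, were named because of that separation, so it is no support. The other 6 kept FGF genes overlapped, FGFR2 and FGFR3 among them, with differences from -0.45 to -0.17. Further kept probe sets of FGFR2 (-1.07) and of FGF11 (-2.09, with both rhLH signals under the filter level) lay below both PBS arrays. That of FGFR3 overlapped (-0.037), as did both further kept FGF12 probe sets, at -0.18 and 0.043.

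**Figure D2:**
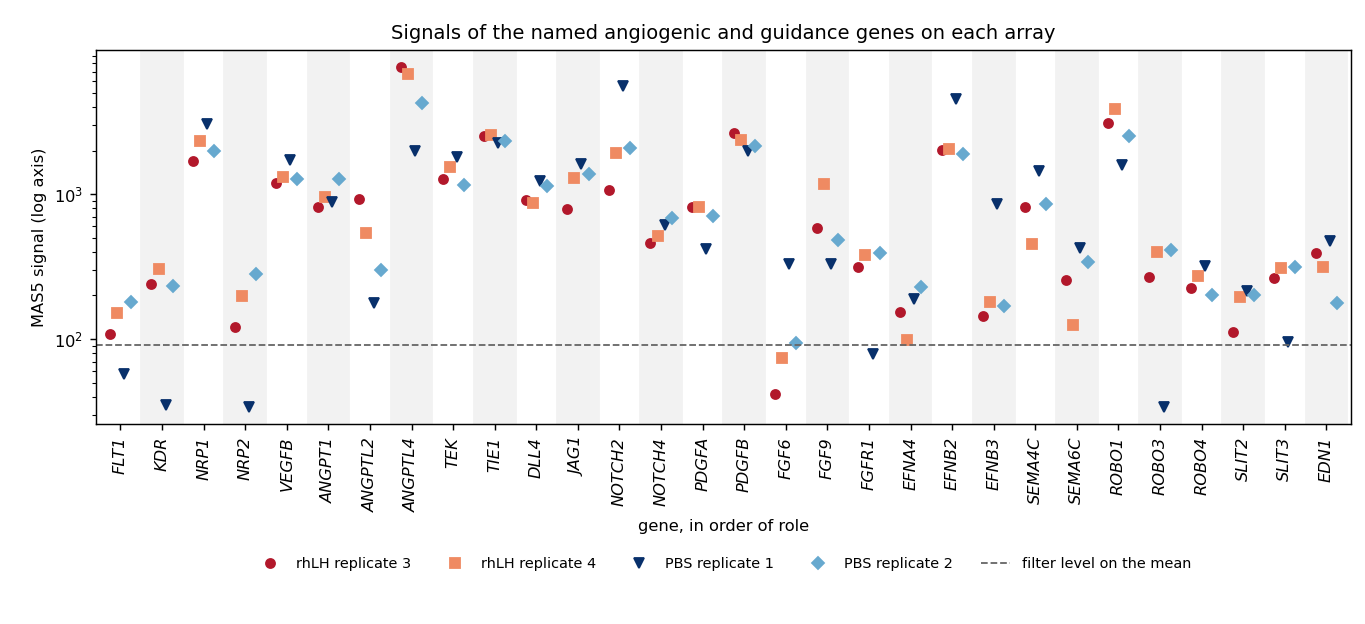
MAS5 signals on a log axis for the 30 named genes above the filter level, 4 points per gene in the order rhLH replicate 3, rhLH replicate 4, PBS replicate 1 and PBS replicate 2, with the dashed line at the signal of 90.7 that the mean had to pass. The dark blue triangles of PBS replicate 1 stand apart for KDR, NRP2, FGFR1 and ROBO3 (low) and for NOTCH2, EFNB2 and EFNB3 (high), whereas the 4 points of TIE1 nearly coincide.

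Ephrins and Eph receptors, which signal in both directions between touching cells, had 13 of 19 genes above the filter level. Their median was -0.24, and 2 lay above and 2 below both PBS arrays (15.4% each). Over all kept probe sets 14.4% lay above and 17.7% below. After median centring their median was -0.012, with 2 above and 0 below, where 7068 of all 31659 kept probe sets lay above and 3575 below. EFNB2, the ephrin of arterial endothelium, had 2025 and 2042 with rhLH and 4566 and 1889 with PBS. PBS replicate 1 alone was high, the groups overlapped, and the difference of -0.53 (SE 0.47) was 0.11 without that array, while a further probe set stood at 0.83. EFNB3, a ligand best known from the nervous system, repeated this layout with 145 and 181 with rhLH and 849 and 169 with PBS (log2 -1.17, and -0.056 without PBS replicate 1). EFNA4, a membrane-anchored ephrin, had 155 and 98.3 with rhLH and 189 and 231 with PBS, with both rhLH signals below both PBS signals (log2 -0.69, SE 0.54), a difference that was -0.40 without rhLH replicate 4. The separation was lost after quantile normalization and after median centring, as was that of EPHA4 (-0.26).

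EFNA1, an ephrin induced in inflamed endothelium, and EFNA3 lay above both PBS arrays at 0.16 and 0.60. The further EFNA1 probe set was also separated, at 0.42, while the first one overlapped after quantile normalization. Kept EphA receptors ran from -0.26 to -0.059 (3 genes) and kept EphB receptors from -0.26 to 0.59 (3 genes, none separated). EPHA2, a receptor for EFNA1, had 976 and 895 with rhLH and 954 and 995 with PBS (log2 -0.059, SE 0.32). EFNB1 had 528 and 624 with rhLH and 326 and 582 with PBS (log2 0.38, SE 0.44). Both overlapped, and both were chosen after their values were seen.

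Of the 12 kept semaphorins, 9 had negative differences, 5 lay below both PBS arrays and 1 above. Of the 7 kept plexins, their receptors, 6 had positive differences, 2 lay above both PBS arrays and 0 below. Over all kept probe sets 17.7% lay below and 14.4% above. After median centring 3 semaphorins lay below and 1 above, where 3575 of all 31659 kept probe sets lay below and 7068 above. Whether ligands and receptors differ was not tested. Against PBS replicate 2 alone the plexin median was -0.34, in place of 0.16 against both PBS arrays, so its side depends on PBS replicate 1. Further kept plexin probe sets all overlapped, those of PLXNA1 at 1.02 and -0.069, of PLXNA2 at -0.68 and -0.74 and of PLXNA3 at -0.18. The semaphorin with the smallest p was SEMA6C, a transmembrane semaphorin, with signals of 256 and 126 with rhLH and 425 and 340.0 with PBS (log2 -1.01, SE 0.52, limma adjusted p = 0.919). Both rhLH arrays lay below both PBS arrays, at -1.17 and -0.86, and rhLH replicate 4 was the lowest, so that the difference was -0.54 without it. SEMA4C, a ligand of plexin B2, had 817 and 451 with rhLH and 1452 and 849.7 with PBS, also without overlap (-0.85, SE 0.46). Its difference was -0.47 without PBS replicate 1 and -0.44 without rhLH replicate 4.

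SEMA5B (-0.59), SEMA4B (-0.68) and SEMA6D (-0.36) lay below both PBS arrays as well, and SEMA4G (0.61), PLXNA1 (0.59) and PLXNA3 (0.20) above. Of these, SEMA5B had nearly the same difference against each PBS array (-0.55 and -0.63). SEMA4B overlapped after quantile normalization and after centring, and SEMA6D after centring. SEMA3A, a secreted repellent of axons and endothelial cells, did not pass the filter, with signals of 111 and 129.5 with rhLH and 7.58 and 98.0 with PBS.

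The other 6 kept semaphorins overlapped, with differences from -0.82 to 0.47, as did the other 5 kept plexins, from -0.48 to 0.34. The following 3 were chosen after their values were seen, for their known roles. PLXND1, the endothelial receptor for SEMA3E, had 8340.4 and 10986 with rhLH and 4733 and 12035 with PBS (log2 0.34, SE 0.52). PLXNB2, the receptor for SEMA4C, had 2584 and 2918 with rhLH and 1766 and 3469 with PBS (log2 0.15, SE 0.41). For both plexins the PBS arrays lay on either side of the rhLH arrays. SEMA3C, a secreted ligand that acts through neuropilins and plexins, had 1973 and 3182 with rhLH and 6674 and 2944 with PBS (log2 -0.82, SE 0.50). PBS replicate 1 was the highest of the 4, the SEMA3C difference was -0.23 without it, and the further SEMA3C probe set separated the groups at -0.73.

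The 6 kept Slits and Robos had a median difference of 0.43, with 0.44 when only PBS replicate 1 was used and 0.074 when only PBS replicate 2 was. Without PBS replicate 1, SLIT1 also passed the filter, and the median over those 7 genes was -0.14. ROBO1, a receptor for Slit ligands on endothelial and other cells, had 3100.2 and 3849 with rhLH and 1589 and 2531 with PBS. Both rhLH signals lay above both PBS signals (1.72-fold, log2 0.78, SE 0.36, limma adjusted p = 0.919), with 1.11 from PBS replicate 1 and 0.45 from PBS replicate 2. SLIT2, its secreted ligand, had 113 and 197 with rhLH and 214 and 201 with PBS, below both (log2 -0.43, SE 0.53). The SLIT2 signal of rhLH replicate 4 was close to PBS replicate 2, without rhLH replicate 3 the difference was -0.072, and the groups overlapped after quantile normalization or centring.

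SLIT3, a related ligand that acts on endothelium, had 263 and 309 with rhLH and 96.2 and 316 with PBS, and its difference of 0.64 became -0.14 without PBS replicate 1. Its further probe set went the other way, with 54.3 and 88.8 with rhLH and 283 and 156 with PBS (-1.40). Both rhLH signals were under the filter level, so this probe set passed only through its PBS signals and its separation is no support. The direction of SLIT3 is not settled. ROBO3, a receptor known from commissural axons, read 266 and 401 with rhLH and 33.9 and 414 with PBS. The large pooled difference of 1.23 (SE 1.03) stood at 2.78 from PBS replicate 1, and from PBS replicate 2 it was -0.32. ROBO4, the endothelial Robo, had 227 and 273 with rhLH and 321 and 200.4 with PBS, a difference of -0.028 that was 0.29 without PBS replicate 1, 0.15 after quantile normalization and 0.20 after centring.

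EDN1, the precursor of the vasoconstrictor peptide endothelin-1, had 391 and 313 with rhLH and 476 and 179 with PBS. The PBS arrays bracketed the rhLH arrays, and the difference of 0.24 (SE 0.57) changed sign between them, being -0.43 from PBS replicate 1 and 0.91 from PBS replicate 2. ECE2, one of the enzymes that cut the precursor to its active form, was read at 709 and 701 with rhLH and 362 and 322 with PBS (log2 1.01, limma adjusted p = 0.919), without overlap, and ECE1 overlapped (-0.20). Among the 11 kept genes of the VEGF and hypoxia list, ADM, a vasodilator peptide induced by low oxygen, had 5826 and 5335 with rhLH and 6484 and 13066 with PBS (-0.72), and RAMP2, part of its receptor, had 2516 and 2779 with rhLH and 1306 and 2280.5 with PBS (0.61). These 2 genes were separated in opposite directions. Of the 5 kept FGF cofactors and inhibitors, 1 lay above and 2 below both PBS arrays, where 14.4% and 17.7% of all kept probe sets did so. SPRY1, an inhibitor of FGF receptor signalling that FGF itself induces, had 1686 and 2542 with rhLH and 3009 and 3366 with PBS (-0.62), and lay below both PBS arrays, as did FRS3, an adaptor of the FGF receptors, at -0.93. FGFRL1, an FGF receptor that lacks the kinase, lay above both at 0.26, while SPRY2 (-0.47) and SPRY4 (0.22), relatives of SPRY1, overlapped.

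**Figure D3:**
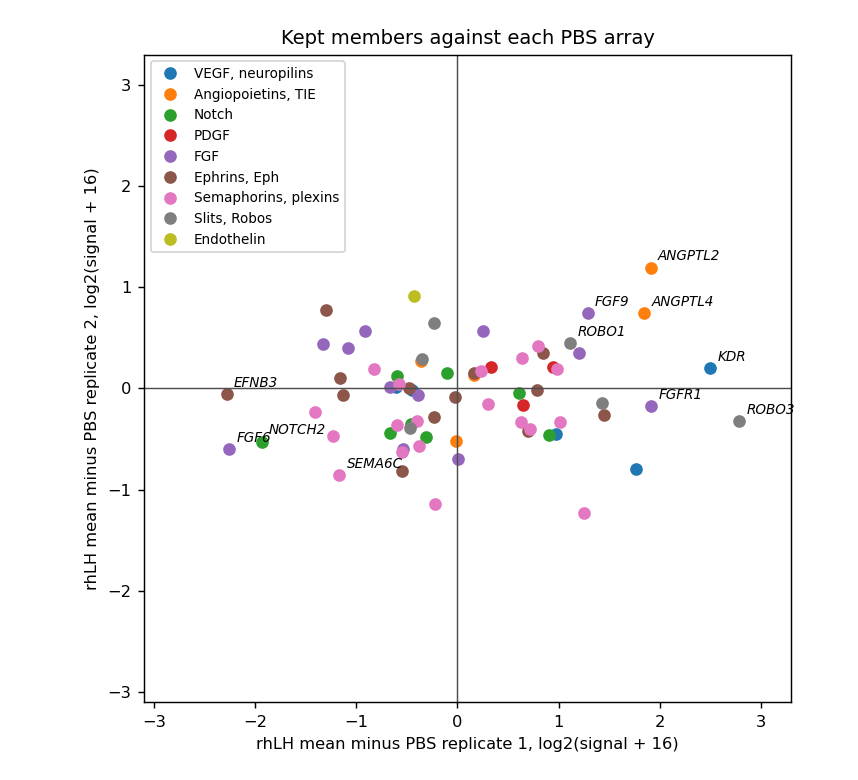
Each of the 72 genes above the filter level is placed by its rhLH mean minus PBS replicate 1 (horizontal axis) and minus PBS replicate 2 (vertical axis), both in log2(signal + 16), and coloured by role group. The cloud is wider than it is tall, 33 genes fall in the quadrants where the signs differ, and ANGPTL2 is the gene with the highest value against PBS replicate 2.

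Against the PBS arrays taken singly, 33 of the 72 genes (45.8%) had opposite signs, near the 47.9% of all kept probe sets, among them FLT1, NRP1, NRP2, TEK, FGFR1, EFNB2, ROBO3, ROBO4, SLIT3 and EDN1. Both axes share the rhLH arrays. Of the 72 genes, 63 lay above the filter level on all 4 arrays, and 8 of the other 9 fell under it on PBS replicate 1 (KDR, FLT1, NRP2, FGF21, FGFR1, EPHB2, PLXNB3 and ROBO3), PLXNB3 also on rhLH replicate 4. The ninth, FGF6, did so on both rhLH arrays. The 25 genes below the filter were 10 FGF genes, 6 ephrins and Eph receptors, 6 semaphorins and plexins, and 1 each of the VEGF, angiopoietin and Slit groups, and 6 of them were under the level on every array. Both rhLH arrays lay above both PBS arrays for 3 of the 25 (FGF2, SEMA3A and EPHB6) and below both for 6 (ANGPT4, FGF20, FGFR4, EPHA3, EPHA6 and SEMA7A). These shares of 12% and 24% are near those of all probe sets below the filter, 11.6% and 22.3%.

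The dimmer probe sets of the same genes gave a second reading for 31 genes. Of 45 such probe sets above the filter level, 28 lay on the same side of 0 as the representative and 17 on the opposite side. Where the representative had separated the groups, 13 of 20 lay on the same side and 7 were themselves separated on that side, which were those of ANGPTL2, EFNA1, JAG1, NOTCH2, PDGFB, SEMA4B and SEMA6D. Probe sets of 1 gene share its RNA on the same arrays, so their match does not measure the spread between animals.

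**Figure D4:**
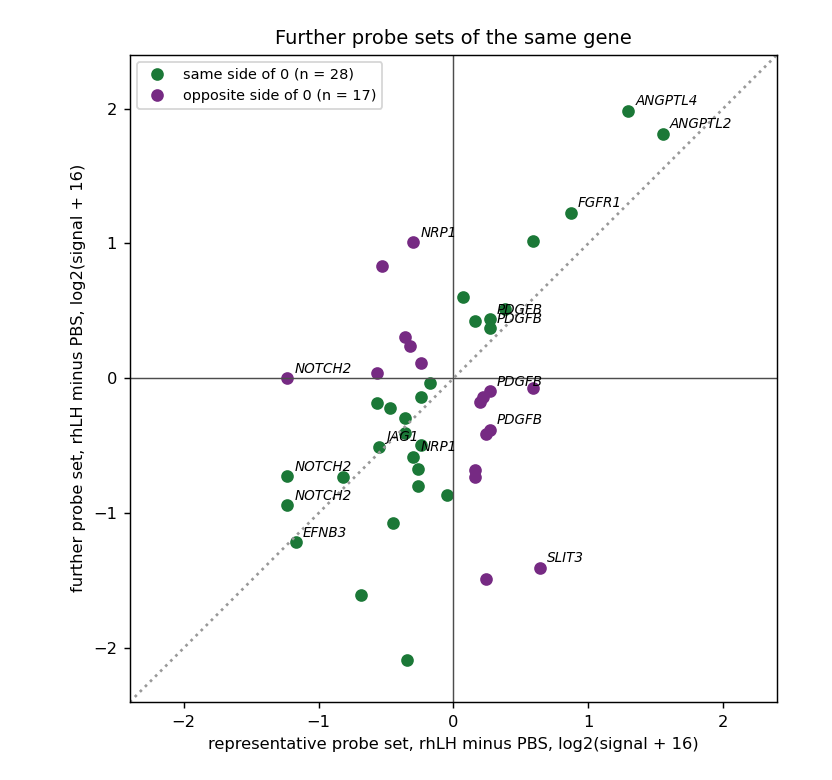
Each point is 1 of 45 further probe sets above the filter level, with the difference of its gene's representative probe set on the horizontal axis and its own on the vertical axis, both rhLH minus PBS in log2(signal + 16). The 28 green points lie on the same side of 0 on both axes and the 17 purple points on opposite sides; ANGPTL2, ANGPTL4 and FGFR1 are at the upper right, and SLIT3 is at the lower right.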

How the data were processed

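Biotin-labelled total RNA of each corpus luteum was read on Affymetrix arrays. The table the authors deposited holds 1 intensity per probe set, a linear MAS5 signal according to the submitters' processing notes. Their 2% trimmed mean was 500.0 on all 4 arrays. How far the authors scaled or filtered the signals is not given in the sources used here, and neither are detection calls.

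Of 52865 probe sets, 99 controls were left out. Signals were analysed as log2(signal + 16), without further normalization, for the 31659 probe sets whose mean lay above the 40th percentile. Symbols came from the platform annotation supplied for the array (24956 probe sets with 1 symbol, 361 with several, 27449 with none). Probes were designed for another macaque species, and mismatches were not examined. A signal depends on its probes, so levels of different genes are not compared. Groups came from the sample titles. rhLH was compared with PBS by limma 3.58.1 in R 4.3.3 (two-sided moderated test with an intensity trend, Benjamini-Hochberg over all kept probe sets, threshold 0.05), after the same code was tested on simulated data. Single-gene SEs are limma's. The number of arrays, 2 per group, limits the precision.

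The genes, role groups, lists and tests were chosen with earlier results of these data known. Full values are given for a panel of 29 genes where matched (22, of which 3 were below the filter), the 2 genes of each role group with the smallest p, and any gene with unadjusted p under 0.05 or 2-fold separation, 33 in all. Others were named after their values were seen. Among matched cell type markers, median differences were 0.52 for luteal (7 genes), 0.28 for endothelial (11), 0.096 for pericyte and smooth muscle (5) and -0.084 for lymphatic (4) genes. They were -0.080 for fibroblast (5), 0.52 for macrophage (5), -0.26 for T cell (1) and 0.58 for blood (2) genes. Against PBS replicates 1 and 2 singly, luteal genes stood at 1.10 and 0.0023, endothelial at 0.27 and -0.071, and pericyte and smooth muscle at 0.065 and -0.0091. Lymphatic genes stood at -0.15 and 0.094, fibroblast at 0.20 and -0.28, macrophage at 1.17 and -0.25, T cell at -0.10 and -0.43, and blood at 0.50 and 0.66. Among the pathway lists, medians were -0.17 for VEGF and hypoxia, -0.086 for Notch, -0.032 for guidance, 0.41 for endothelin and -0.47 for FGF cofactors. Alternatives covered normalization, pseudocounts of 1 and 64, no filter, a filter at the 70th percentile, the probe set per gene, eBayes without a trend, array weights and leaving out each array.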

Additional observations from a re-analysis of the deposited data

How the results depend on the processing

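No paired analysis was possible because the replicate numbers run from 1 to 4 across the groups and pair no samples. The 0 limma calls, over all probe sets and among the family genes, held under every normalization, pseudocount, filter, variance and weighting alternative. Leaving out 1 array gave 0 to 8027 calls over all probe sets and 0 to 17 among family genes. All of these calls came without PBS replicate 2, where the lone PBS replicate 1 is assumed to vary like the rhLH arrays, so they are no result about the genes. Genes above both PBS arrays numbered 19 to 31 and those below 21 to 36 with 1 array left out. Fewer arrays then have to separate, so these counts are no result about the genes. Those below numbered 7 after median centring and 8 with the filter at the 70th percentile, where fewer genes are tested. The median over the kept genes was 0.19 after median centring and -0.23 to 0.00050 with 1 array left out. After median centring the angiopoietin group had a median of 0.38, Notch -0.090, ephrins and Eph receptors -0.012, and semaphorins and plexins -0.043. Semaphorins alone then stood at -0.19 and plexins alone at 0.39. Quantile normalization gave ephrins and Eph receptors -0.054, and no filter or the median over probe sets gave -0.059. No filter gave VEGF 0.067 and angiopoietins 0.051. The 70th percentile filter gave VEGF -0.27 over 2 kept genes, and semaphorins and plexins 0.072 over 13. It gave Slits and Robos 0.78, the value of ROBO1 alone. The median over probe sets gave Slits and Robos 0.091. With 1 array left out, role medians ran from -0.019 to 0.97 for VEGF, 0.13 to 0.27 for angiopoietins, -0.39 to -0.19 for Notch and 0.21 to 0.65 for PDGF. They ran from -0.60 to 0.35 for FGF, -0.24 to -0.056 for ephrins and Eph receptors and -0.32 to -0.090 for semaphorins and plexins. For Slits and Robos the range was -0.14 to 0.51, and for EDN1 it was -0.43 to 0.91. Of 30 named genes 10 changed sign in at least 1 alternative. With 1 array left out, FLT1 ran from -0.45 to 0.97, NRP1 from -0.61 to 0.0099, NRP2 from -0.80 to 1.77, TEK from -0.36 to 0.27, FGFR1 from -0.18 to 1.92, EFNB2 from -1.16 to 0.11, ROBO3 from -0.32 to 2.78, ROBO4 from -0.35 to 0.29, SLIT3 from -0.14 to 1.43 and EDN1 from -0.43 to 0.91. Median centring gave TEK 0.18 and ROBO4 0.20, quantile normalization gave ROBO4 0.15, and the median over probe sets gave NRP1 0.61, EFNB2 0.15 and SLIT3 -0.38. Beyond these alternatives' construction, the cause was not tested.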
